A study of Homo sapiens with 60 samples.

Results

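1321N1 cells that had been exposed to mercury for 12 h were compared with non-treated cells collected at the same time point. 1321N1 is a human astrocytoma line, used here as an astrocyte-derived model of metal exposure in the brain. The comparison rested on 6 of the 60 libraries of the time course, 3 labelled as mercury at 12 h and 3 labelled as non-treated at 12 h, and on the 12341 of 62703 annotated genes that had enough counts to be tested. The libraries of each group were identified from their labels.

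Mercury binds tightly to the sulfur of cysteine side chains and of glutathione, and so can inactivate enzymes, deplete antioxidant thiols, and unfold proteins. Cells are known to answer such damage through several transcription factors. HSF1 drives heat shock chaperones that refold or clear damaged proteins, NRF2 drives antioxidant and glutathione genes, ATF4 drives amino acid supply and stress feedback when translation initiation is restrained, and MTF1 drives the metallothioneins that bind zinc and toxic metals.

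The mercury group received 20 µM mercury chloride for 12 h, and the non-treated group received no metal and was harvested at 12 h. Elsewhere, arsenic stands for 2.55 µM sodium metaarsenite and cadmium for 2.3 µM cadmium chloride, each in 3 libraries. All groups were of a single line without any genetic change named in the labels, and the series describes the replicates as technical triplicates, whereas the methods of the study name triplicate treatments without saying whether they were separate cultures, so p-values measure only the spread between these libraries. Messenger RNA was read from its 3′ end by QuantSeq, in which each transcript yields about 1 tag, and levels are given as CPM, the counts of a gene per 1000000 counts of its library after TMM scaling.

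The 3 mercury libraries held 2493730, 3157071, and 3232788 counts and the 3 non-treated libraries 3656752, 3216686, and 3769847. Between 14987 and 15982 genes were detected per library, and 5.16 to 6.43% of counts came from mitochondrial transcripts. In a principal component analysis of the 500 most variable genes, the first component held 56.4% of the variance and separated both groups, whereas the second held 15.5% and set mercury replicate 1, the shallowest library, at 17.9 against -8.18 and -9.81 for the other mercury libraries. Without that library, 483 genes rather than 463 passed the thresholds given next, of which 387 were shared. In bulk RNA, fewer transcripts per cell and fewer cells of a given state cannot be told apart.

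The cell type label was checked on marker genes. Of 15 astrocyte markers, 5 (GFAP, AQP4, S100B, ALDH1L1, and FABP7) had no count in any of the 6 libraries, although VIM, CD44, NES, GLUL, SOX9, GJA1, and NFIA were expressed, and their summed level ranged from 4272 to 4939 CPM without metal and from 4831 to 5084 CPM with mercury. These 5 markers were thus not detected in these libraries. The list also held SLC1A2, SLC1A3, and ALDOC, and 6 of the 15 markers stayed at 3 counts or fewer in each library. None of the 7 astrocyte markers tested was called. The summed neuron markers, 3 of 10 of which were at 0, ranged from 21.7 to 23.1 CPM without metal and from 29.4 to 31.6 CPM with mercury. SYT1, a synaptic vesicle protein, was the only neuron marker called, at an LFC of 0.79 ± 0.27 (SE, adjusted p = 0.0381), and that call was lost on leaving out mercury replicate 1 (0.75, adjusted p = 0.0966), mercury replicate 2 (0.70, adjusted p = 0.143), or any single non-treated library. All 8 microglia markers stayed at 3 counts or fewer in each library. Oligodendrocyte markers, with 5 of 8 at 0, summed to 49.6 to 73.1 CPM and 49.4 to 51.8 CPM. The part of these markers in the results was not tested.

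Mercury changed a large number of transcripts by 12 h, with more genes rising than falling. A gene was called where its Benjamini-Hochberg adjusted p from edgeR's quasi-likelihood test was under 0.05, and differentially expressed where its log2 fold change (LFC, mercury over non-treated) was also above 1 or below -1. Of the genes tested, 1097 (8.89%) were called higher and 883 (7.16%) lower, 1980 (16.0%) in all. Among these, 319 (2.58%) had an LFC above 1 and 144 (1.17%) an LFC below -1, which gave 463 (3.75%) differentially expressed genes. They comprised 415 protein-coding genes, 42 long non-coding RNAs, and 6 genes of other types. LFCs passed 2 in 80 genes and lay under -2 in 17. The 3 mercury libraries did not overlap with the 3 non-treated libraries in 4028 genes (32.6% of those tested) and in 451 of the 463. In 15 differentially expressed genes the non-treated libraries held 3 counts or fewer each, so that their fitted LFC is not a measured fold. The median LFC over all genes tested was -0.02, and the plot of LFC against mean level shows this center together with the longer upper tail. A test that required the LFC itself to lie beyond 1 kept 76 higher and 7 lower genes.

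**Figure D1:**
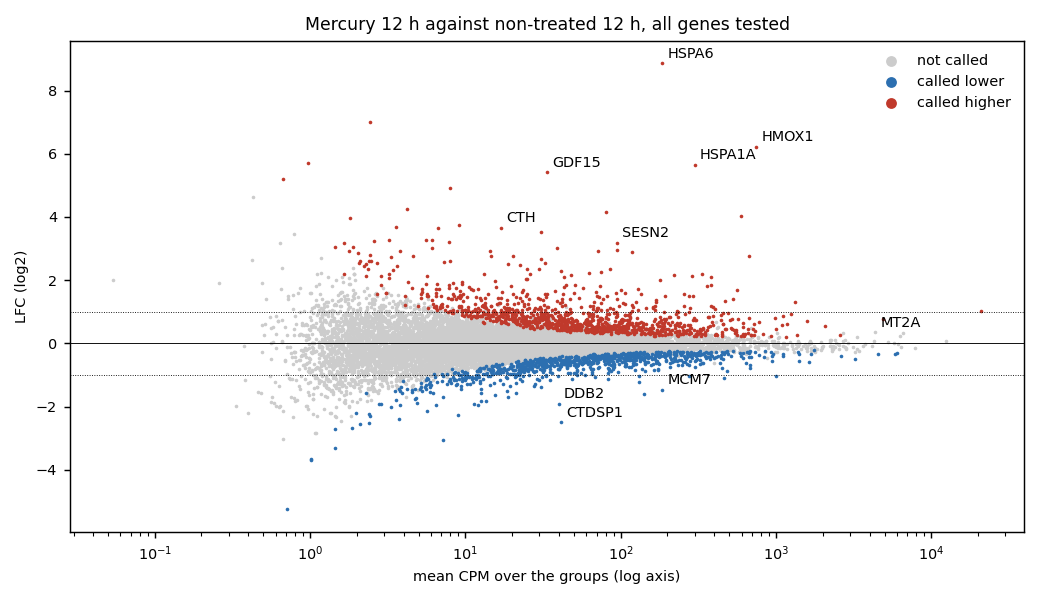
LFC after 12 h of mercury (y axis, log2) against the mean level over the 6 libraries (x axis, CPM on a log axis), 1 point per gene tested. Called genes are colored, dotted lines mark LFCs of 1 and -1, and HSPA6 and HMOX1 stand at the top with LFCs of 8.87 and 6.23.

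The genes with the largest increases encoded chaperones, a heme-degrading enzyme, and stress-induced regulators. HSPA6, an HSP70 chaperone that is almost silent in unstressed cells, had 2, 1, and 5 counts in the non-treated libraries and 764, 1256, and 1217 counts in the mercury libraries. On the CPM scale these were 0.559, 0.309, and 1.31 against 313, 407, and 389.5, an LFC of 8.87 ± 0.28 (SE, adjusted p = 1.9e-37). All mercury libraries lay far above the non-treated ones, whose few counts limit the precision of this fold.

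HMOX1 (chr22:35380361-35394214 in GRCh38), which encodes the enzyme that opens the heme ring, rose from 18.7, 19.1, and 21.0 CPM to 1169, 1665, and 1592 CPM, an LFC of 6.23 ± 0.17 (SE, adjusted p = 1.56e-40). HSPA1A, the main inducible HSP70, measured 17.6, 8.65, and 8.64 CPM without metal and 493, 653, and 615 CPM with mercury, giving an LFC of 5.65 ± 0.19 (SE, adjusted p = 1.02e-35). Its near-identical neighbor HSPA1B measured 67.4, 81.8, and 58.9 CPM and 969, 1289.5, and 1125 CPM, with an LFC of 4.03 ± 0.16 (SE, adjusted p = 1.78e-31). The 3′ ends of both HSP70 genes differ. Only 6.76% of the 50-base windows at that of HSPA1A, and 0 at that of HSPA1B, also occurred in another gene.

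GDF15, a secreted stress cytokine, stood at 0.559, 1.85, and 2.10 CPM and rose to 52.4, 75.5, and 69.5 CPM (LFC 5.42 ± 0.33 SE, adjusted p = 1.36e-21). ZFAND2A, an arsenite-inducible protein that binds the proteasome, went from 8.95, 6.18, and 9.95 CPM to 123, 179, and 156 CPM (LFC 4.17 ± 0.24 SE, adjusted p = 5.21e-23). CTH, the cystathionine gamma-lyase that makes cysteine, was at 1.96, 3.09, and 2.36 CPM and 26.6, 36.3, and 31.4 CPM (LFC 3.66 ± 0.34 SE, adjusted p = 1.05e-13). None of these genes overlapped between groups.

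ATF3, a stress-induced transcription factor of the ATF/CREB family, measured 6.71, 4.94, and 3.14 CPM in the non-treated libraries and 51.6, 69.6, and 47.7 CPM in the mercury libraries (LFC 3.51 ± 0.28 SE, adjusted p = 1.4e-16). SESN2, a sestrin that restrains mTORC1 signaling, increased from 21.5, 16.1, and 18.1 CPM to 135, 201, and 173 CPM (LFC 3.19 ± 0.17 SE, adjusted p = 1.66e-24), and DDIT4, another mTORC1 inhibitor, from 16.2, 23.5, and 24.9 CPM to 174, 166, and 167 CPM (LFC 2.97 ± 0.18 SE, adjusted p = 9.91e-22). Thus both mTORC1 inhibitors were higher in each mercury library. MXD1, a MAX partner that opposes MYC, reached an LFC of 3.01 ± 0.27 (SE, adjusted p = 1.74e-14), and AKR1C1, an aldo-keto reductase, an LFC of 2.93 ± 0.16 (SE, adjusted p = 8.03e-25).

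The largest decreases among well-counted genes were smaller in size. CTDSP1, a small phosphatase of the RNA polymerase II C-terminal domain, fell from 77.5, 64.9, and 68.4 CPM to 9.82, 18.1, and 8.96 CPM (LFC -2.50 ± 0.21 SE, adjusted p = 1.05e-15). DDB2, the damage sensor of nucleotide excision repair, fell from 68.2, 65.5, and 55.0 CPM to 18.4, 12.3, and 19.5 CPM (LFC -1.91 ± 0.20 SE, adjusted p = 1.63e-11). The mercury libraries were below each non-treated library for both genes. The linker histone H1-2 had an LFC of -1.59 ± 0.19 (SE, adjusted p = 1.2e-09).

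MCM7, a subunit of the replicative helicase, went from 287, 261, and 266 CPM to 97.4, 102, and 96.3 CPM (LFC -1.46 ± 0.14 SE, adjusted p = 8.84e-14). Others of the 12 lowest were ZNF512B (LFC -1.63), the caveolar protein CAVIN2 (-1.56), KLHL13 (-1.52), the helix-loop-helix factor ATOH8 (-1.36), the mitochondrial ferredoxin reductase FDXR (-1.36), and the p53 relative TP73 (-1.35). The plot of leading genes by library shows the 3 points of each group for the 12 highest and 10 of the 12 lowest.

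**Figure D2:**
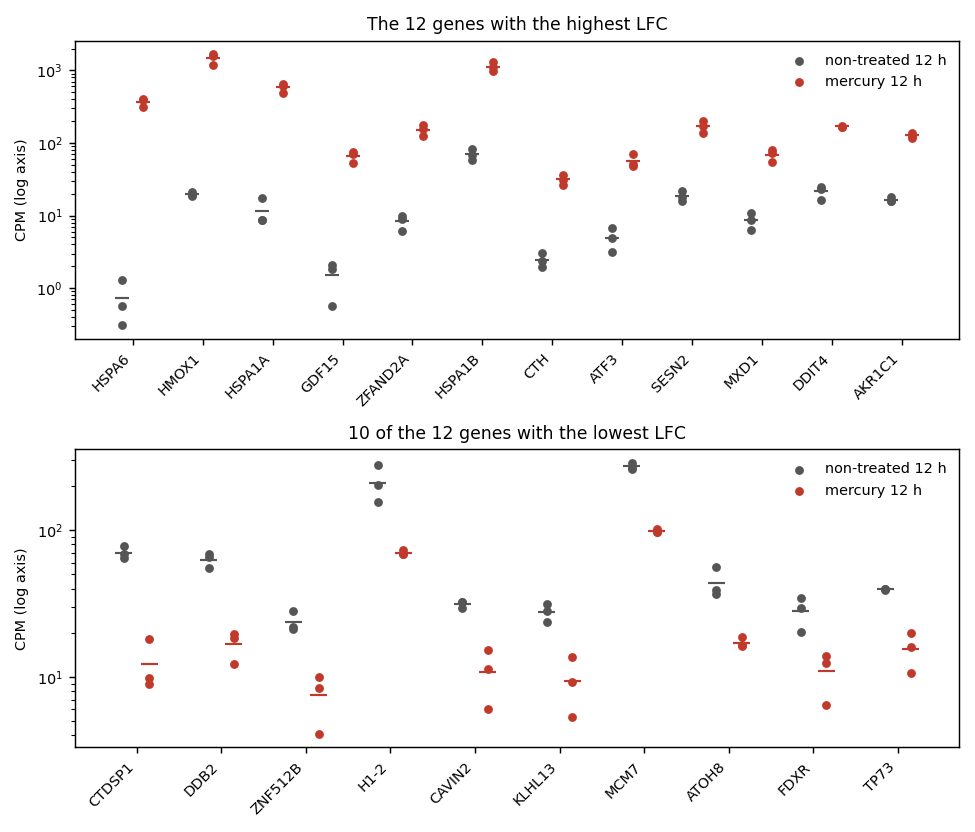
CPM in each library (log axis) for the 12 genes with the highest LFC and 10 of the 12 with the lowest LFC after 12 h of mercury, among differentially expressed genes whose libraries averaged 50 counts or more. Points are single libraries of the non-treated and mercury groups, bars are their means, no pair of groups overlaps, and HSPA6 shows the widest gap between them.

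Heat shock genes were the group with the largest single changes. Of 44 members tested of 45 listed, 32 were called higher and 1 lower, against 8.89% and 7.16% of all genes, and the median LFC of the members was 0.63. By role, 8 of 12 HSP70 and HSP110 genes, 5 of 7 HSP40 genes, both HSP90 genes, all 3 small heat shock genes, 7 of 9 chaperonin subunits, and 7 of 9 co-chaperones were called higher. The transcript of HSF1, the regulator itself, was not called (LFC -0.08 ± 0.13 SE, adjusted p = 0.748).

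DNAJB1, an HSP40 that delivers clients to HSP70, measured 197, 142, and 178 CPM and 998, 1242, and 1263 CPM (LFC 2.76 ± 0.12 SE, adjusted p = 6.58e-29). HSPH1, an HSP110 nucleotide exchange factor, was at 265, 246, and 285 CPM and 794, 908, and 884 CPM (LFC 1.70 ± 0.08 SE, adjusted p = 7.32e-28). BAG3, which links HSP70 to autophagy, was at 70.8, 87.4, and 80.7 CPM and 318, 389, and 372 CPM (LFC 2.18 ± 0.13 SE, adjusted p = 1.42e-22). Each of these 3 was higher in every mercury library. HSPB8, a small heat shock protein that works with BAG3, had 1, 4, and 0 counts without metal and 18, 24, and 15 with mercury (LFC 3.70 ± 1.01 SE, adjusted p = 0.00616), and these few counts limit its precision.

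The constitutive chaperones changed less. HSP90AA1 had an LFC of 1.02 ± 0.07 (SE, adjusted p = 1.59e-20) and HSP90AB1, the more constant HSP90 isoform, 0.78 ± 0.08 (SE, adjusted p = 1.34e-12). The mitochondrial chaperonin pair HSPD1 and HSPE1 reached 0.79 and 0.75, HSPB1 (HSP27) reached 0.70, and HSPA8, the housekeeping HSP70, 0.57. The chaperonin subunit TCP1 had an LFC of 0.62. DNAJB5 was the 1 member called lower (LFC -1.52 ± 0.49 SE, adjusted p = 0.0248), and this call was lost without mercury replicate 1 (-1.11, adjusted p = 0.166), mercury replicate 2 (-1.57, adjusted p = 0.0705), non-treated replicate 2 (-1.39, adjusted p = 0.0792), or non-treated replicate 3 (-1.53, adjusted p = 0.0501).

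The promoters of HSPA6 and of CHORDC1, an HSP90-binding co-chaperone (LFC 1.57 ± 0.13 SE, adjusted p = 8.16e-16), are shown because both hold the paired GAA repeats that HSF1 is known to bind. The sequences are RefSeq promoter stretches of GRCh38.p14 upstream of the annotated start, ended where an annotated exon begins, HSPA6 from chr1:161524290-161524539 on the plus strand and CHORDC1 from chr11:90223078-90223299 on the minus strand, and capitals mark each match on either strand to 3 alternating units, GAA, TTC, and GAA, with any 2 bases between them. The 3 matches of CHORDC1 overlap each other.
HSPA6: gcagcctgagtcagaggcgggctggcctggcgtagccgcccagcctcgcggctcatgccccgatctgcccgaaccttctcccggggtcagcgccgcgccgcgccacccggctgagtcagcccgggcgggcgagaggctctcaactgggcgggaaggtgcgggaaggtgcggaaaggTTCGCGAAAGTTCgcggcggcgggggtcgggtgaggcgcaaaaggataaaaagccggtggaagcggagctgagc
CHORDC1: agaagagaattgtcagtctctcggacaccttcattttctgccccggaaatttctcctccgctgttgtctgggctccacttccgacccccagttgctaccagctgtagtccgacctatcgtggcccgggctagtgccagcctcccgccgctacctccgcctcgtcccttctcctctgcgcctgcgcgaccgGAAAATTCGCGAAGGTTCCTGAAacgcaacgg
This motif was found in the 250 bases before the start of 4 of the 39 tested heat shock genes with a RefSeq promoter (HSPA6, DNAJB6, CHORDC1, and HSPA8), all of them called higher, and in 0.4395% of 27305 promoters. With or without the motif, 30 of these 39 genes were called higher, and HSPA1A, HSPA1B, DNAJB1, HSPH1, and BAG3 held no match. DNAJB6, an HSP40 that suppresses aggregation, had an LFC of 1.15. A match describes the letters in this window only.

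Many NRF2 target genes rose. Of 51 tested of 56 listed, 29 were called higher and 0 lower, against 8.89% and 7.16% of all genes, with a median LFC of 0.77. By role the counts were 5 of 7 heme and iron genes, 5 of 9 glutathione genes, 3 of 4 thioredoxin genes, 6 of 11 reductases, 3 of 6 NADPH producers, 0 of 4 efflux pumps, and 7 of 10 regulators. After HMOX1, the ferritin heavy chain FTH1, which stores the iron released from heme, went from 794, 753, and 743 CPM to 1889, 1808, and 1957 CPM (LFC 1.30 ± 0.08 SE, adjusted p = 1.65e-22). For FTH1, 26.8% of the 50-base windows at the 3′ end also occur in other genes. The light chain FTL had an LFC of 0.87.

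Both subunits of the first enzyme of glutathione synthesis rose. GCLM, the modifier subunit of glutamate-cysteine ligase, measured 113, 109, and 139 CPM and 534, 564, and 549 CPM (LFC 2.19 ± 0.10 SE, adjusted p = 2.33e-29), and GCLC, the catalytic subunit, 6.43, 8.96, and 5.76 CPM and 17.2, 21.4, and 16.3 CPM (LFC 1.38 ± 0.26 SE, adjusted p = 4.15e-05). SLC7A11, the cystine importer, was at 135, 152, and 144 CPM and 574, 649, and 635 CPM (LFC 2.11 ± 0.11 SE, adjusted p = 2.68e-25). Groups did not overlap for any of them. Glutathione reductase GSR had an LFC of 0.90. SLC7A11 and CHAC1, the latter given below, were counted in both the NRF2 and the ATF4 lists.

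TXNRD1, the selenium-containing thioredoxin reductase and a known target of mercury, had 151, 200.1, and 126 CPM without metal and 584, 579, and 521 CPM with it (LFC 1.82 ± 0.15 SE, adjusted p = 6.38e-16). NQO1, a quinone reductase, was called at an LFC of 0.83, and OSGIN1, an oxidative stress growth inhibitor, at 2.76. AKR1C2 had an LFC of 3.26, but 60.6% of the 50-base windows at its 3′ end also occur in other genes, so its reads may be shared with AKR1C1. Among regulators, the small MAF partners MAFF and MAFG reached 2.12 and 1.51 and NFE2L2, which encodes NRF2, 0.82. KEAP1, the NRF2 inhibitor, was not called (LFC 0.02 ± 0.10 SE, adjusted p = 0.933).

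ATF4 target genes had the highest share of members called. Of 59 tested of 66 listed, 48 were called higher and 0 lower, against 8.89% and 7.16% of all genes. The median LFC was 1.28. Transcription factors were called in 7 of 8, feedback regulators in 5 of 5, secreted factors in 5 of 5, amino acid synthesis enzymes in 8 of 11, amino acid carriers in 8 of 9, tRNA synthetases in 11 of 13, and other targets in 4 of 8. ATF4 itself, which is mainly controlled by translation, went from 279, 218, and 305 CPM to 587, 713, and 721 CPM (LFC 1.33 ± 0.13 SE, adjusted p = 7.71e-13), with 31.3% of the 50-base windows at its 3′ end found in other genes.

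DDIT3 (CHOP), a death-promoting ATF4 partner, measured 11.2, 9.26, and 8.12 CPM and 59.3, 57.3, and 51.5 CPM (LFC 2.55 ± 0.20 SE, adjusted p = 1.26e-16). PPP1R15A (GADD34), the phosphatase subunit that restores translation, measured 29.1, 32.1, and 22.8 CPM and 190.3, 222, and 211 CPM (LFC 2.90 ± 0.16 SE, adjusted p = 1.66e-24). TRIB3, a pseudokinase that restrains ATF4, had an LFC of 2.36, CHAC1, which degrades glutathione, 2.68, and CEBPB 1.85. Of the secreted factors, VEGFA had 2.36 and STC2 2.12.

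Amino acid supply genes rose in part, led by CTH, given above. PHGDH, the first enzyme of serine synthesis, had an LFC of 1.31 ± 0.09 (SE, adjusted p = 9.72e-20), PSAT1, the next enzyme, 1.19, and MTHFD2, a mitochondrial folate enzyme, 1.56. The heavy and light chains of the large neutral amino acid carrier, SLC3A2 and SLC7A5, had 1.50 and 1.58, and SLC1A4, a neutral amino acid carrier, 1.83. Glycyl-tRNA and cysteinyl-tRNA synthetases GARS1 and CARS1 had 1.39 and 1.16. ASNS, the asparagine synthetase of this program, could not be tested, and 98.8% of its 3′ end lies within another gene on the same strand.

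ATF3 is shown as an ATF4 target whose RefSeq promoter stretch holds the amino acid response element core TGATGNAA, marked in capitals. The stretch is RefSeq GRCh38.p14 chr1:212565157-212565333 on the plus strand. It ends just before the most upstream annotated base of the gene. Any other start of the gene was not searched, and the match describes the letters in this window only.
ATF3: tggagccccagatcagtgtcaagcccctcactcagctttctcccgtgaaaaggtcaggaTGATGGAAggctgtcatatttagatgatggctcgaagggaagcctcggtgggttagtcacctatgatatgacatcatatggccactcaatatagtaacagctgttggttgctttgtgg
The core occurred on either strand in 6 of 45 tested ATF4 target promoters and in 3.186% of all promoters. These 6 were ATF3, IARS1, GOT1, CHAC1, HERPUD1, and AARS1, all called higher. With or without the core, 38 of the 45 genes were called higher.

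Endoplasmic reticulum (ER) stress genes changed in part. Of 38 tested of 40 listed, 11 were called higher and 0 lower, against 8.89% and 7.16% of all genes. The median LFC was 0.24. HERPUD1, which supports ER-associated degradation, went from 32.7, 34.3, and 30.9 CPM to 103, 111, and 126 CPM (LFC 1.80 ± 0.14 SE, adjusted p = 1.89e-16), XBP1, a transcription factor of the unfolded protein response, reached 1.73 ± 0.11 (SE, adjusted p = 1.36e-21), and DNAJB9, an ER HSP40, 1.42 ± 0.24 (SE, adjusted p = 4.34e-06). The abundant chaperones moved less. HSPA5 (BiP) was at 962, 926, and 878 CPM and 1355, 1481, and 1415 CPM (LFC 0.62 ± 0.08 SE, adjusted p = 1.18e-09), and the calcium-binding chaperone CALR had an LFC of -0.14 ± 0.08 (SE, adjusted p = 0.288). HSP90B1 was called at 0.30 ± 0.09 (SE, adjusted p = 0.0126), a call lost without mercury replicate 1 (0.28, adjusted p = 0.0598), mercury replicate 2 (0.29, adjusted p = 0.0525), or non-treated replicate 1 (0.28, adjusted p = 0.0693).

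The HSPA5 promoter is shown because it holds the ER stress response element. The stretch is RefSeq GRCh38.p14 chr9:125241383-125241593 on the minus strand, with capitals on the match to CCAAT and CCACG separated by any 9 bases, which was searched on either strand.
HSPA5: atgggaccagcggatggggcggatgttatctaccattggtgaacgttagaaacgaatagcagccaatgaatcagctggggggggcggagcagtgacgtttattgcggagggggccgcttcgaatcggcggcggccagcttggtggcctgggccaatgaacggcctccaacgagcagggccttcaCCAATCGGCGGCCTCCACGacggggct
This element was found in 7 of 35 tested ER genes (ERO1B, CANX, HSPA5, HSP90B1, CALR, XBP1, and CRELD2) and in 0.08057% of all promoters. Of the 7, 5 were called higher, beside 10 of the 35. The ERO1B call was lost on leaving out any 1 of the 6 libraries (LFC 2.98 to 3.21, adjusted p = 0.0536 to 0.118).

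Protein degradation genes rose in part. Of 34 proteasome genes tested, 11 were called higher and 0 lower (median LFC 0.21), against 8.89% and 7.16% of all genes. The base and lid subunits PSMD12, PSMD1, and PSMD3 had LFCs of 0.58, 0.48, and 0.46. Of 19 ubiquitin and autophagy genes tested, 10 were called higher and 0 lower (median LFC 0.47), against the same shares of all genes. SQSTM1 (p62), the receptor that carries ubiquitinated cargo to autophagosomes, went from 314, 265, and 293 CPM to 706, 754, and 850.4 CPM (LFC 1.40 ± 0.09 SE, adjusted p = 9.02e-21), and MAP1LC3B, which coats them, reached 1.42 ± 0.14 (SE, adjusted p = 2.7e-13). GABARAPL1, of the same family, had an LFC of 2.60. The polyubiquitin gene UBB had an LFC of 0.45.

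Of 12 listed metallothioneins, the best known metal-induced genes, 4 were tested and 2 called higher, against 8.89% of all genes. MT1X measured 9.51, 9.26, and 8.64 CPM without metal and 24.1, 23.6, and 26.9 CPM with mercury (LFC 1.45 ± 0.22 SE, adjusted p = 4.45e-07), and MT1E measured 263, 286, and 226 CPM and 533, 576, and 548 CPM (LFC 1.10 ± 0.11 SE, adjusted p = 3.09e-13). MT2A, the main isoform, was at 4901, 4042, and 2451 CPM and 4544, 4786, and 5248 CPM and did not pass the test (LFC 0.36 ± 0.19 SE, adjusted p = 0.199). It passed when only the libraries compared were fitted (0.36, adjusted p = 0.0191), in the same fit with the replicate block (0.41, adjusted p = 0.000606), and when genes with low counts were kept (0.35, adjusted p = 8.12e-05). MT1B, also among the 4 tested, had no count in any of the 6 libraries and could not be called in this comparison. It passed the count filter only through other libraries of the series. The mercury libraries lay above the non-treated ones for MT1X and MT1E, whereas both groups overlapped for MT2A. The MT1X values are uncertain, since 41.0% of its 3′ end lies within another gene on the same strand and 44.4% of the 50-base windows there occur in other genes.

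Of 18 genes tested from a list of zinc carriers and MTF genes, 4 were called higher and 0 lower. The shares of all genes were 8.89% and 7.16%, and the median LFC of the list was 0.02. The zinc exporter SLC30A1 went from 45.3, 46.9, and 39.3 CPM to 79.8, 85.2, and 86.7 CPM (LFC 0.94 ± 0.14 SE, adjusted p = 1.75e-07). The zinc and iron importer SLC39A14 reached 0.95 ± 0.16 (SE, adjusted p = 3.23e-06) and the Golgi zinc carrier SLC30A7 0.80 ± 0.20 (SE, adjusted p = 0.00359). MTF1, the zinc-sensing regulator, had an LFC of 0.41 ± 0.15 (SE, adjusted p = 0.0433), and this call was lost on leaving out any 1 of the 6 libraries (LFC 0.38 to 0.45, adjusted p = 0.0697 to 0.117). The other members ranged from -0.62 for SLC39A11 to 0.33 for SLC30A5.

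The MT1X promoter is shown because it carries several copies of the metal response element core TGCNCNC, marked in capitals on either strand. The stretch is RefSeq GRCh38.p14 chr16:56682220-56682469 on the plus strand.
MT1X: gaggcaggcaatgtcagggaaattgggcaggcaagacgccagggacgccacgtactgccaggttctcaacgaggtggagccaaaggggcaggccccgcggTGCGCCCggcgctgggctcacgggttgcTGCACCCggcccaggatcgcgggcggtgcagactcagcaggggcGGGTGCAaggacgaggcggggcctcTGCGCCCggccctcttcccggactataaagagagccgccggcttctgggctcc
A single copy of this short core occurs in 48.38% of all promoters, and 4 or more copies in 1.703%. MT1X held 4, while MT2A, which was not called, held 7 and MT1B, without a count here, held 5.

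Immediate early genes and feedback regulators of MAP kinase signaling were in part elevated at 12 h. Of 32 tested, 16 were called higher and 1 lower, against 8.89% and 7.16% of all genes. The median LFC was 0.72. The split was uneven by role, with 1 of 7 AP-1 subunits, 10 of 15 early factors, and 5 of 10 MAP kinase feedback genes called higher. DUSP1, a phosphatase that switches off stress-activated kinases, went from 6.15, 9.57, and 12.0 CPM to 36.0, 47.0, and 45.1 CPM (LFC 2.20 ± 0.30 SE, adjusted p = 2.38e-08), and DUSP5, which acts on ERK, reached 1.78 ± 0.19 (SE, adjusted p = 2.95e-11). EGR1 had an LFC of 1.06 and KLF4 1.02. ZFP36, an mRNA decay factor, had 0, 3, and 1 counts without metal and 19, 28, and 22 with mercury, at least 9.39-fold higher against a floor of 3 counts per library. The survival factor IER3 had 5, 6, and 1 counts against 7, 46, and 47, an LFC of 3.26 ± 0.50 (SE, adjusted p = 7.79e-07). JUN, the core AP-1 subunit, was not called (LFC 0.19 ± 0.08 SE, adjusted p = 0.119).

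FOSB was the AP-1 subunit called higher (LFC 2.80 ± 0.82 SE, adjusted p = 0.011), with 0.559, 1.24, and 0 CPM and 5.32, 6.48, and 0.960 CPM. Its counts were low, and its call was lost without mercury replicate 2 (2.33, adjusted p = 0.101) or non-treated replicate 3 (2.20, adjusted p = 0.0861). FOSL1, another AP-1 subunit, was called lower (LFC -0.44 ± 0.13 SE, adjusted p = 0.0122), and that call was lost without mercury replicate 3 (-0.39, adjusted p = 0.0694), non-treated replicate 1 (-0.35, adjusted p = 0.108), or non-treated replicate 2 (-0.39, adjusted p = 0.0549).

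Genes listed as p53 targets moved in both directions. Of 28 tested, 7 were called higher and 6 lower, against 8.89% and 7.16% of all genes, with a median LFC of 0.05. Growth arrest genes were called higher in 5 of 8, whereas metabolism and repair genes were called lower in 4 of 8, and no feedback gene of 4 was called. GADD45A, a growth arrest and repair factor, went from 68.0, 93.0, and 54.0 CPM to 269, 324, and 272 CPM (LFC 2.02 ± 0.17 SE, adjusted p = 4.33e-15). CDKN1A (p21), the cyclin-dependent kinase inhibitor, had an LFC of 0.88 ± 0.16 (SE, adjusted p = 1.53e-05). The death genes PMAIP1 (NOXA) and TNFRSF10B (DR5) both had 1.14. MDM2, the canonical p53 feedback gene, was not called (LFC 0.11 ± 0.15 SE, adjusted p = 0.695), and the lower members were led by DDB2 and FDXR, given above, with the translesion polymerase POLH at -0.74 and the quinone oxidoreductase TP53I3 at -0.77. Of the higher members, SESN2 also belongs to the ATF4 list.

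Cell cycle genes changed in part, mostly downward. Of 40 genes of G2 and mitosis tested, 0 were called higher and 22 lower, against 7.16% of all genes, with a median LFC of -0.38. CDC20, the activator of anaphase, was at 197, 188, and 170.2 CPM without metal and 107, 93.9, and 104 CPM with mercury (LFC -0.87 ± 0.11 SE, adjusted p = 6.27e-09). The proliferation marker MKI67 had an LFC of -0.65 ± 0.11 (SE, adjusted p = 1.01e-05), topoisomerase TOP2A -0.54, and the kinases AURKB and PLK1 -0.61 and -0.46. KIF20A, a mitotic kinesin, had -0.70 and the phosphatase CDC25B -0.68. CDK1 was not called (LFC 0.05 ± 0.11 SE, adjusted p = 0.83).

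Of 45 DNA replication genes tested, 2 were called higher and 9 lower (median LFC -0.21), against 8.89% and 7.16% of all genes. Without mercury replicate 2, 5 were called lower. MCM7 had the lowest LFC of the list, given above. E2F1, an activator of S phase genes, had an LFC of -0.64 ± 0.15 (SE, adjusted p = 0.000883) and E2F7, a repressor of the same genes, 1.05 ± 0.21 (SE, adjusted p = 0.000132). The origin licensing factor CDC6 was called higher (LFC 0.55 ± 0.10 SE, adjusted p = 5.61e-05), and the polymerase clamp PCNA was not called (LFC -0.15 ± 0.18 SE, adjusted p = 0.638). RFC3, a clamp loader subunit, was called lower (LFC -0.66 ± 0.21 SE, adjusted p = 0.019), but not without mercury replicate 3 (-0.56, adjusted p = 0.11) or non-treated replicate 1 (-0.36, adjusted p = 0.354).

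Cholesterol and fatty acid synthesis genes were called lower in 11 and higher in 1 of 33 tested, against 7.16% and 8.89% of all genes. Their median LFC was -0.20. Leaving out non-treated replicate 1 or 2 brought the lower calls to 5 and 7. LSS, the cyclase that forms lanosterol, went from 52.9, 40.8, and 39.3 CPM to 16.4, 24.3, and 24.6 CPM (LFC -1.01 ± 0.19 SE, adjusted p = 6.33e-05). SREBF1, the regulator of lipid synthesis, had an LFC of -1.05 ± 0.27 (SE, adjusted p = 0.0032), which missed the threshold without mercury replicate 2 (-0.79, adjusted p = 0.0681). SREBF2, the regulator of cholesterol synthesis, had -0.70 ± 0.19 (SE, adjusted p = 0.00752), which missed it without mercury replicate 1 (-0.57, adjusted p = 0.0716) or non-treated replicate 2 (-0.56, adjusted p = 0.0693). FASN, the fatty acid synthase, had -0.49 ± 0.11 (SE, adjusted p = 0.000444).

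Of 70 nuclear oxidative phosphorylation genes tested, 17 were called lower and 0 higher, against 7.16% and 8.89% of all genes (median LFC -0.19). The lower calls numbered 10 without mercury replicate 2, 11 without mercury replicate 3, and 6 without non-treated replicate 1. By complex, the lower calls were 9 of 33 in complex I, 0 of 4 in complex II, 1 of 9 in complex III, 1 of 10 in complex IV, and 6 of 14 in complex V. NDUFB1, a complex I subunit, had 126, 111, and 85.1 CPM and 66.3, 58.6, and 56.0 CPM (LFC -0.84 ± 0.16 SE, adjusted p = 5.82e-05), and UQCR10, a complex III subunit, had an LFC of -0.76 ± 0.17 (SE, adjusted p = 0.000476). None of the 13 genes on mitochondrial DNA was called in either direction, and MT-ATP6, a complex V subunit, had an LFC of 0.34 ± 0.29 (SE, adjusted p = 0.477), which passed the threshold when only the libraries compared were fitted (0.34, adjusted p = 0.00332) or genes with low counts were kept (0.34, adjusted p = 0.000195).

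Cytosolic ribosomal protein genes were called lower in 7 of 76 (median LFC -0.09), near the 7.16% of all genes, and the count was 3 without mercury replicate 1, 2 without mercury replicate 2, 4 without mercury replicate 3, and 1 without non-treated replicate 1. RPS26 had an LFC of -0.61 ± 0.12 (SE, adjusted p = 6.87e-05), and 40.0% of the 50-base windows at its 3′ end also occur in other genes, so its reads are uncertain. Of 21 snoRNA host genes tested, 3 were called higher and 7 lower (median LFC -0.19), against 8.89% and 7.16% of all genes. SNHG19 had -1.23, SNHG9 -0.97, and SNHG12 -0.80, whereas SNHG7 had 0.46.

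Matrix and adhesion genes were called higher in 6 and lower in 6 of 40 tested (median LFC 0.02), against 8.89% and 7.16% of all genes. Fibrillar collagens COL1A1 and COL1A2 had LFCs of -0.42 and -0.63, and the microfibrillar collagen COL6A3, by contrast, went from 399, 485, and 387 CPM to 676, 722, and 751 CPM (LFC 0.76 ± 0.09 SE, adjusted p = 7.91e-10). The collagen cross-linking enzymes LOX and PLOD2 had 0.72 and 0.74. Of 23 YAP and SRF targets, 6 were called higher and 4 lower (median LFC 0.00), against the same shares of all genes. CCN2, a matricellular YAP target, had 1.10 ± 0.18 (SE, adjusted p = 3.44e-06) and LATS2, the kinase that restrains YAP, 0.95 ± 0.20 (SE, adjusted p = 0.000379). The SRF targets TPM1 and ACTG1 had -0.53 and -0.35.

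The remaining lists had 9 to 24 genes tested, and their counts stand beside 8.89% called higher and 7.16% called lower among all genes. Of 17 NF-kB and cytokine genes tested, 5 were called higher and 1 lower (2 higher without mercury replicate 2). CSF1, a macrophage growth factor, had an LFC of 1.23 ± 0.23 (SE, adjusted p = 3.97e-05) and the chemokine CXCL3, with 0, 6, and 0 counts against 17, 15, and 18, had 3.26 ± 0.79 (SE, adjusted p = 0.00198), while NFKBIA, the first NF-kB feedback gene, was not called (LFC -0.11 ± 0.10 SE, adjusted p = 0.501). Of 24 glycolysis genes, 4 were called higher and 3 lower (1 lower without mercury replicate 1 or non-treated replicate 2), with the glucose carrier SLC2A3 at 0.97 ± 0.17 (SE, adjusted p = 1.21e-05) and the lactate exporter SLC16A3 at -0.85 ± 0.14 (SE, adjusted p = 3.44e-06). GAPDH was not called (LFC -0.07 ± 0.11 SE, adjusted p = 0.76). Of 9 polyamine genes, 4 were called higher and 1 lower (1 higher without mercury replicate 2 or non-treated replicate 1 and 2 without non-treated replicate 3), led among well-counted genes by SAT1, the acetyltransferase that starts polyamine breakdown, at 1.06 ± 0.14 (SE, adjusted p = 3.9e-08). Circadian clock genes were called higher in 2 of 16, a share near the 8.89% of all genes, with the repressor BHLHE41 at 1.44. Of 9 interferon genes 1 was called higher, also near that share, IRF1 (LFC 0.71 ± 0.20 SE, adjusted p = 0.00682), which was not called without non-treated replicate 1 (0.56, adjusted p = 0.087).

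In all, 295 of the 767 listed genes tested were called in either direction, each gene counted once, against 16.0% of all genes. The lists were written with earlier results of these data known. The difference between these shares is therefore a description only and was not tested. Of the 463 differentially expressed genes, 102 were in a list and 361 in none, 225 of the latter higher and 136 lower.

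The 12 h state was then placed in the time course, where each time point had its own non-treated libraries. After 1.5 h of mercury 59 genes (0.478%) were called higher and 11 (0.0891%) lower. The higher and lower counts were 172 (1.39%) and 19 (0.154%) by 3 h, then 554 (4.49%) and 369 (2.99%) by 6 h, and after 24 h they had reached 1712 (13.9%) and 1721 (13.9%). Of the 319 genes that were differentially expressed and higher at 12 h, 37, 84, 159, and 261 were also called higher at 1.5, 3, 6, and 24 h, with median LFCs of 0.25, 0.44, 0.85, and 1.46, beside 1.44 at 12 h. Of the 144 lower genes, 5, 4, 24, and 76 were called lower at these times, with median LFCs of -0.18, -0.28, -0.40, and -0.85, beside -1.27 at 12 h. These genes were chosen by their 12 h values, so the other time points are given as a description.

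HMOX1 had LFCs of 1.97, 4.69, 5.82, 6.23, and 7.21 in the order of the time points from 1.5 to 24 h. Its LFC was thus higher at each later time point. For HSPA1A the values were 1.59, 3.50, 4.36, 5.65, and 6.51, and for GDF15 0.34, 2.98, 3.04, 5.42, and 4.63. CTH, by comparison, had 0.76, 0.93, 2.37, 3.66, and 3.36. MT1X was highest at 6 h, with 1.03, 1.52, 2.15, 1.45, and 0.68. Among lower genes, DDB2 had -0.01, -0.37, -0.54, -1.91, and -1.55, and CTDSP1 -0.15, -0.40, -1.42, -2.50, and -3.07.

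**Figure D3:**
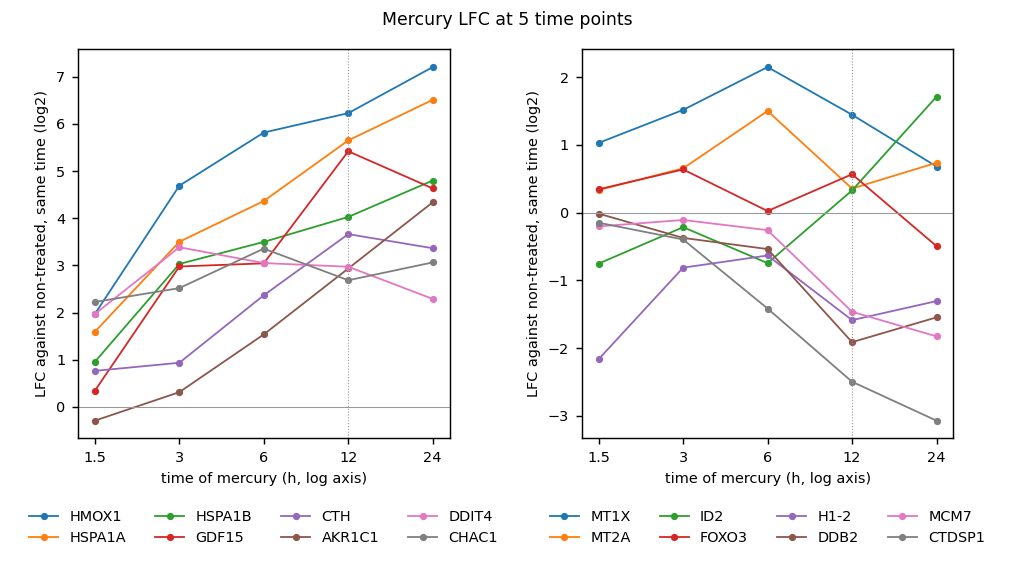
LFC of mercury over time-matched non-treated libraries (y axis, log2) at each time point from 1.5 to 24 h (x axis, log scale), for 8 genes higher at 12 h and 8 further named genes, 1 line per gene. HMOX1 is the highest line of the first panel from 3 h on, and DDB2 and CTDSP1 lie below 0 at 12 h in the second.

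Whether the mercury effect itself differed between 24 h and 12 h was tested as the difference of both LFCs. It did so in 77 genes (0.624%), 37 (0.3%) with a higher value at 24 h and 40 (0.324%) with a lower one. This count ranged from 32 to 77 when single libraries were left out and was 34 without 12 h mercury replicate 1, 41 without 12 h mercury replicate 3, 38, 41, and 51 without 24 h mercury replicates 1, 2, and 3, 35 and 32 without 12 h non-treated replicates 1 and 2, and 36 and 45 without 24 h non-treated replicates 1 and 2. AKR1C1 had a larger effect at 24 h by 1.40 ± 0.22 (SE, adjusted p = 9.37e-05), and the difference was 1.38 ± 0.21 (SE, adjusted p = 6.83e-05) for ID2, an inhibitor of helix-loop-helix factors. For both ferritin chains, FTL and FTH1, it was 0.77 and 0.57, for SQSTM1 0.61, and for SAT1 1.05. FOXO3, a forkhead factor of stress and starvation, had a lower LFC at 24 h, with a difference of -1.06 ± 0.19 (SE, adjusted p = 0.000536). Of the 51 NRF2 targets tested, 7 had a higher LFC at 24 h, beside 0.3% of all genes. HMOX1 was among them, with a difference of 0.98 (adjusted p = 0.0483). That difference was not called on leaving out 9 of the 12 libraries in turn (0.83 to 1.04, adjusted p = 0.0501 to 0.222).

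Finally, mercury was set against the other metals at 12 h. The 3 metals share the same non-treated libraries, so the metal groups were compared directly. Mercury differed from arsenic in 844 genes (6.84%), 545 (4.42%) higher and 299 (2.42%) lower with mercury, and this count was 437 without arsenic replicate 1, 503 without arsenic replicate 2, and 446 without mercury replicate 2. HSPA6 measured 0.841, 1.44, and 2.10 CPM with arsenic beside 313, 407, and 389.5 CPM with mercury, a difference of 7.93 ± 0.25 (SE, adjusted p = 9.89e-37), and HSPA1A measured 36.4, 54.6, and 44.7 CPM with arsenic, a difference of 3.70 ± 0.16 (SE, adjusted p = 4.6e-29). Of 44 heat shock members tested, 25 were called higher and 0 lower with mercury than with arsenic, beside 4.42% and 2.42% of all genes. DDB2 and CTDSP1 were lower with mercury, with differences of -1.74 ± 0.21 (SE, adjusted p = 1.84e-09) and -1.14 ± 0.22 (SE, adjusted p = 0.000234).

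HMOX1 did not pass this test, at 1634, 1666, and 1483 CPM with arsenic and a difference of -0.11 ± 0.12 (SE, adjusted p = 0.672). Among 59 ATF4 targets tested, 20 were higher and 1 lower with mercury than with arsenic, beside 4.42% and 2.42% of all genes. The higher and lower counts were 15 and 0 of 32 immediate early genes and 12 and 0 of 51 NRF2 targets. For the 40 genes of G2 and mitosis they were 0 and 12.

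Mercury differed from cadmium in 406 genes (3.29%), 223 (1.81%) higher and 183 (1.48%) lower with mercury, a count that was 246 and 265 without cadmium replicates 2 and 3 and 233 without mercury replicate 2. Metallothioneins gave the lowest differences among well-counted genes. MT1X measured 346, 397, and 370.1 CPM with cadmium beside 24.1, 23.6, and 26.9 CPM with mercury, a difference of -3.89 ± 0.17 (SE, adjusted p = 4.11e-29). MT1E measured 5848, 7360.3, and 7783 CPM with cadmium (difference -3.66 ± 0.11 SE, adjusted p = 5.37e-38) and MT2A 24963, 22685, and 24324 CPM (-2.30 ± 0.19 SE, adjusted p = 1.82e-14). SLC30A1 was also lower with mercury, with a difference of -1.52 ± 0.12 (SE, adjusted p = 6.09e-15).

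ATF4 targets went the other way, with 38 of 59 tested higher and 0 lower with mercury than with cadmium. The shares of all genes were 1.81% and 1.48%. CHAC1 differed by 2.41 ± 0.28 (SE, adjusted p = 3.66e-09) and CTH by 1.49 ± 0.29 (SE, adjusted p = 0.000369). TSC22D3, a leucine zipper protein induced by glucocorticoids, differed by 1.96 ± 0.30 (SE, adjusted p = 3.51e-06), and AKR1C1 by 1.59 ± 0.14 (SE, adjusted p = 2.24e-13). NRF2 targets were higher in 15 and lower in 0 of 51, and heat shock genes higher in 7 and lower in 0 of 44. Genes of G2 and mitosis were higher in 0 and lower in 12 of 40. Counts of list members against arsenic and cadmium were not repeated with single libraries left out. HSPA6 did not pass the test against cadmium (0.33 ± 0.14 SE, adjusted p = 0.247), nor did DDB2 (-0.16 ± 0.24 SE, adjusted p = 0.834).

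**Figure D4:**
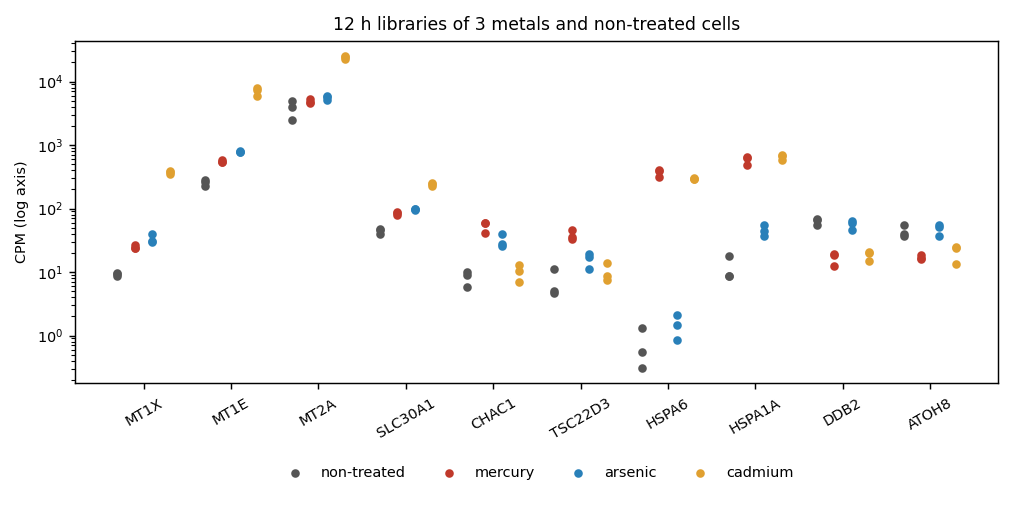
CPM in each 12 h library (log axis) of the non-treated, mercury, arsenic, and cadmium groups for 10 named genes, 1 point per library. HSPA6 is high with mercury and cadmium and low with arsenic, and MT1X is highest with cadmium.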

How the data were processed

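RNA from the 1321N1 line was sequenced from the 3′ end (QuantSeq), and the deposited table holds raw read counts per gene that the authors made by alignment to GRCh38 with STAR 2.7.9a, a version given in the submitters' processing notes, and by strand-specific counting in Union mode over the GENCODE v43 basic annotation. That mode leaves out reads that fall on more than 1 gene of the same strand, which lowers genes with overlapping 3′ ends. The 92 spike-in entries held no counts.

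From these counts, edgeR 4.0.16 in R 4.3.3 was fitted to all 60 libraries with 1 coefficient for each of 20 groups, so that all groups share 1 estimate of the spread. Genes were kept by filterByExpr (minimum count 10, minimum total 15), libraries were scaled by TMM, and p-values of the quasi-likelihood test received Benjamini-Hochberg adjustment across all 12341 genes. SEs were derived from the F statistic. The 6 libraries held 2493730 to 3769847 counts (2215276 to 4404609 over the series), with a common biological coefficient of variation of 0.120. Alternatives used DESeq2 1.42.0, other scaling and filters, glmTreat, only the libraries compared, a replicate block, and each library left out.

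Groups came from the sample titles. Replicates differed by more than sampling noise (chi-square per degree of freedom 2.58 to 4.79). Each library was counted as a replicate, although this spread does not show that they came from separate cultures. The comparison and the gene lists were chosen with earlier results of these data known. Named genes were, at a mean of at least 50 counts, the 12 highest and 12 lowest LFCs, the 3 largest called LFCs of each list (or the 2 most abundant members), and the leading genes of the further contrasts; some of these are not reported here. Other genes were picked for their role after their values were seen, so their values support no count. The scripts were tested on simulated data.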

Additional observations from a re-analysis of the deposited data

Results flagged for a closer look

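The effect of mercury at 24 h differed from that at 12 h in 77 genes by the test of the difference itself, and the 8 leading genes are given here with the difference of LFCs (24 h minus 12 h). A larger value at 24 h was found for MIR22HG, a microRNA host gene (1.43), AKR1C1 (1.40), ID2 (1.38), and the mRNA export factor NXF1 (1.17). A lower LFC at 24 h was found for the long noncoding RNA PCCA-DT (-1.31), the integrin-like protein ITGBL1 (-1.18), the lipid phosphatase PLPP3 (-1.15), and FOXO3 (-1.06). A lower LFC does not by itself mean a weaker effect. The 12 h LFC was negative for PLPP3 (-0.52 without non-treated replicate 3) and positive for PCCA-DT (0.61 without mercury replicate 2). Calls for PCCA-DT and PLPP3 were lost without several single libraries, with differences from -1.30 to -1.20 and from -1.18 to -0.92 in those fits. The cause of these differences was not tested.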

How the results depend on the processing

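Of 243 gene results, 203 were called. Among all 243, called or not, 199 kept their side of the threshold under each alternative fit that tested the gene. The glmTreat test was left out of these gene-level counts. Over 3224 gene results under these alternatives, 153 lost their call, 9 gained one, and 0 changed direction where either fit made a call. The 463 differentially expressed genes became 83 with a test of an LFC beyond 1 (76 higher, 7 lower), and the same test gave 0 for 24 h against 12 h, 19 for mercury against arsenic, and 9 for mercury against cadmium. DESeq2 called 117 genes for 24 h against 12 h. Leaving out single libraries gave 381 to 499 differentially expressed genes, 274 to 364 higher and 105 to 150 lower, 32 to 77 for 24 h against 12 h, 437 to 1003 against arsenic, 233 to 317 against cadmium, 233 to 272 list members, and 72 to 80 named genes. The causes of these shifts were not tested.

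The main fit did not pair libraries by replicate number. Same-numbered libraries had correlations of deviations of -0.0027, 0.0375, and 0.0156, and differently numbered ones had -0.0304 to 0.0167. Whether the numbers mark pairs was not tested. With the replicate block, 456 genes were differentially expressed (313 higher, 143 lower), 72 differed between 24 h and 12 h, 844 between mercury and arsenic, and 417 between mercury and cadmium. With only the libraries compared and the replicate block, 44 genes differed between 24 h and 12 h.

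With 3 replicates per group and 2493730 to 3769847 counts per library, small changes of weakly expressed genes were not detectable at this depth. Only 210 of the 463 differentially expressed genes had a mean of at least 50 counts. Genes with shared or overlapping 3′ ends are uncertain, and transcripts do not measure proteins.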
